A study of Mus musculus with 12 samples.

Results

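The Vmn1r genes encode the V1R vomeronasal receptors of the mouse. In RefSeq, 230 protein-coding genes on autosomes have a symbol that starts with Vmn1r and a digit, of 20665 autosomal protein-coding genes, and these 230 genes are described here by the nucleosome calls that lie on them in male germ cells. V1R proteins are receptors with a membrane-spanning core that couple to a G protein, and they sit on sensory neurons of the vomeronasal organ, where they detect pheromones and other chemical cues. A V1R neuron expresses very few of these genes. The genes lie in tandem clusters that arose by duplication, and the coding sequence of most of them has no intron. Nucleosome calls do not measure expression.

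The chromatin was studied by MNase-seq, in which micrococcal nuclease (MNase) cuts the linker DNA and leaves the DNA wrapped on histones, in testis cells of male SV129 mice aged 8 to 12 weeks. The 6 groups of 2 samples were round spermatids (RS) digested with 0.5, 1 or 2 U of MNase and a fraction (M) digested with 0.5, 1 or 2 U. The sample titles call fraction M meiotic spermatids whereas the protocol calls it meiotic, so its exact stage is not settled by the labels. Each collection pooled 11 mice, fractions had a purity of at least 85%, RS digests held 2 times as many cells as M digests, and the labels name no allele or agent other than MNase. The authors made 1 list of nucleosome calls, each 140 bp long, from both samples of a group. There is therefore 1 list per stage and amount and no replicate error, no difference was tested, and every interval below is a 95% interval for counting error alone. Calls can overlap, so these intervals are too narrow. The RS lists held 175736, 39241 and 24905 autosomal calls at 0.5, 1 and 2 U, against 39374, 56941 and 62388 in the M lists. The read depth behind the lists is unknown.

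A call was assigned to a gene when its midpoint lay in the gene or within 1000 bp of it, the window of that gene. Of the 230 genes, 228 could be counted. Vmn1r186 and Vmn1r187 lie on chromosome 7 before the lowest call of that chromosome (mm10), at 94186 to 95088 and at 148877 to 172761, and were left out. Of the 228 genes, 124 lie on chromosome 7, 51 on chromosome 6, 35 on chromosome 13 and 14 on chromosome 17, and the other 4 on 3 more autosomes. Genes were 870 to 33695 bp long, with a median of 924 bp, and 208 of them were at most 2000 bp long. Their merged windows covered 0.810 Mb.

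Promoter sequences of these genes show 2 features on which the values below turn, where calls lie and how alike the genes are. The 300-base promoters of RefSeq (GRCm38.p6), which run from 250 bases before to 50 bases after the start that this table gives, were matched for 205 of the 228 genes. That start equals the outer end of the gene for 197 genes and lies elsewhere for 8, among them Vmn1r40, where it is 2942 bp inside the gene. Calls had their midpoint in the promoters of this table at 6 genes, and the following 3 show an RS example, an M example and the one promoter called in both stages. They are printed 5′ to 3′ on the gene's strand, and capitals mark bases covered by a call with its midpoint in the promoter. Vmn1r12 (chr6:57158670-57158969, plus strand) held 3 calls of the RS 0.5 U list, Vmn1r6 (chr6:57002105-57002404, plus strand) held 2 calls of the M 0.5 U list, and Vmn1r55 (chr7:5147373-5147672, minus strand) held 1 call of the RS 0.5 U list and 1 of the M 2 U list.
Vmn1r12: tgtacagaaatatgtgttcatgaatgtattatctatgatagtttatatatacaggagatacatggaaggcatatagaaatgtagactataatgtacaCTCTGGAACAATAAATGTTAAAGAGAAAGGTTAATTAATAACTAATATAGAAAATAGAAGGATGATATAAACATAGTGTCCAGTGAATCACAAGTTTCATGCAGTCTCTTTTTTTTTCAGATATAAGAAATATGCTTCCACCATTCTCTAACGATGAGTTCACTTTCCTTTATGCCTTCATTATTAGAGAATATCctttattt
Vmn1r6: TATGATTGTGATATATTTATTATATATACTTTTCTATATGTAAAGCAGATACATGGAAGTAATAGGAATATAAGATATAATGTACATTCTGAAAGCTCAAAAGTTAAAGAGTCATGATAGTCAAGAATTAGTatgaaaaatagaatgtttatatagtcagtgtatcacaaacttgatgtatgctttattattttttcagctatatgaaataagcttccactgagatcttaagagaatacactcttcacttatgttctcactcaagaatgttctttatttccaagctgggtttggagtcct
Vmn1r55: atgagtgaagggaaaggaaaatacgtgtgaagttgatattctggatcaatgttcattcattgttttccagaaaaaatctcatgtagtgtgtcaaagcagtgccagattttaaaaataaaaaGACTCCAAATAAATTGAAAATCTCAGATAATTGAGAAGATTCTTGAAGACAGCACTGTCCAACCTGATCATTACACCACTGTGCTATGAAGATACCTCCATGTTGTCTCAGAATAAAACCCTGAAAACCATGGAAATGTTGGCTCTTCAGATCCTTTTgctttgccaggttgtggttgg

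The next 3 promoters show how close copies of these genes can be. The promoter of Vmn1r111 (chr7:20703167-20703466, minus strand) is shared letter for letter by 6 Vmn1r genes, the most of any promoter in the family, and none of the 6 had a call. Vmn1r174 (chr7:23753661-23753960, plus strand) and Vmn1r173 (chr7:23702092-23702391, plus strand) differ at 3 of 300 bases, which stand in capitals, and both had calls. No base of the Vmn1r111 promoter is in capitals.
Vmn1r111: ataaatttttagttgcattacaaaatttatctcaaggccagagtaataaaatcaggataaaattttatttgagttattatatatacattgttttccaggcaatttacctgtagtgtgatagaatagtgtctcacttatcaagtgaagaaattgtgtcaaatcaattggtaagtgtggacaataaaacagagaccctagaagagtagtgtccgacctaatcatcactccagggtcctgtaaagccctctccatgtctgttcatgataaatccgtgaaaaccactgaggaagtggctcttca
Vmn1r174: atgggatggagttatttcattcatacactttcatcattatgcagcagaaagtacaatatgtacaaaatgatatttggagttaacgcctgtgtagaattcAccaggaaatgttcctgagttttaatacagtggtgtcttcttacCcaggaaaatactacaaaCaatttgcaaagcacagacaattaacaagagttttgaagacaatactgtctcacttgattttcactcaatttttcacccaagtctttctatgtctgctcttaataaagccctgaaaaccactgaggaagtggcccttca
Vmn1r173: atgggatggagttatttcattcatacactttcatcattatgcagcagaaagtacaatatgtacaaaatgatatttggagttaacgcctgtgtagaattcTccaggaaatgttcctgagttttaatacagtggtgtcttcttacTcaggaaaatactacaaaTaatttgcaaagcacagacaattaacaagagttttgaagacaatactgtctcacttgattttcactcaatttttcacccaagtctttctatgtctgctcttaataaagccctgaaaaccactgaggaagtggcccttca

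Promoters of Vmn1r genes were poor in G and C, with a median GC content of 36.0%, against 56.7% for 16455 autosomal protein-coding genes. Olfactory receptor promoters had 35.0% and those of Vmn2r genes, the other large vomeronasal receptor family, 38.0%. A CG dinucleotide was missing from 21.5% of Vmn1r promoters and from 4.95% of all promoters. The letters TATAAA, on either strand, were found in 42.4% of Vmn1r promoters, 41.2% of olfactory receptor promoters and 13.5% of all promoters. Vmn1r promoters of genes with a call had a median GC content of 34.7%, and those of genes without one 36.3%. The latter was 35.7% without the run of near copies from Vmn1r91 to Vmn1r166 described below.

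Counts of calls were small in these 0.810 Mb of windows, but were not clearly below the number expected in any list except RS 2 U. The windows held 49, 13 and 2 calls in the RS lists at 0.5, 1 and 2 U, against 10, 20 and 24 calls in the M lists. A relative density sets such a count over the number expected if calls lay at the mean density of the autosomes, so that 1 is the autosomal mean. It was 0.827 (0.612 to 1.09), 0.982 (0.523 to 1.68) and 0.238 (0.0288 to 0.860) in RS at 0.5, 1 and 2 U. In M it was 0.753 (0.361 to 1.38), 1.04 (0.636 to 1.61) and 1.14 (0.731 to 1.70). Only the RS 2 U list had an interval wholly below 1, with 2 calls where 8.40 were expected. No Vmn1r window touched a 10 kb bin with more than 20 calls in any list. Leaving out those bins lowers the mean of the autosomes. The densities without them were 0.885, 1.16 and 0.292 in RS and 0.874, 1.19 and 1.29 in M, and the RS 2 U interval then reached 1.05. The low value of RS 2 U also did not hold under other counts of the same 2 calls: with calls within 73 bp merged it was 0.374 (0.0452 to 1.35), and among calls above the smallest read count of their list 0.808 (0.0979 to 2.92).

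**Figure D1:**
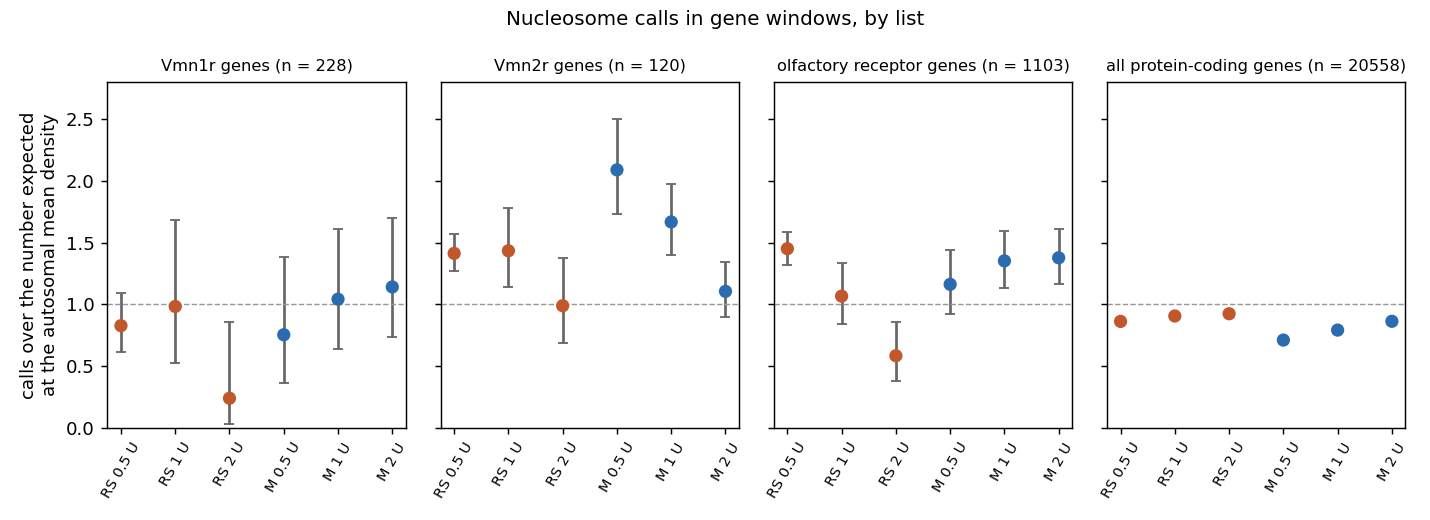
Relative density of calls (calls in gene windows over the number expected at the autosomal mean, y axis) in the 6 lists (x axis; RS orange, M blue) for Vmn1r, Vmn2r, olfactory receptor and all protein-coding genes; bars are 95% Poisson intervals for counting error and the dashed line marks 1. The Vmn1r value of RS 2 U is 0.238, below the other 5 Vmn1r values, which lie between 0.753 and 1.14.

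The stages were set against each other at the same amount of MNase. The log2 ratio of relative density, RS over M, was 0.13 (-0.86 to 1.28) at 0.5 U, -0.08 (-1.21 to 0.99) at 1 U and -2.26 (-5.39 to -0.25) at 2 U, a fold of 0.209 at 2 U. The mean over the 3 amounts was -0.74 (-1.57 to 0.10), an interval that includes 0. Its upper end passed below 0 when densities were scaled to the windows of all protein-coding genes (-0.93, -1.76 to -0.09), without the genes from Vmn1r40 to Vmn1r54 (-0.89, -1.74 to -0.03), and without those from Vmn1r91 to Vmn1r183 (-1.10, -2.18 to -0.02). The mean lay nearer to 0 with 5000 bp on each side (-0.27, -0.63 to 0.10) and without the genes from Vmn1r4 to Vmn1r31 (-0.41, -1.35 to 0.53). Calls summed over the 3 amounts gave -0.35 (-0.90 to 0.20), and the mean without 2 U was 0.03. At 2 U the difference rests on 2 RS calls and 24 M calls. With calls within 73 bp merged into 1 position these became 2 and 18 positions, and the log2 ratio at 2 U was -1.83 (-4.98 to 0.24), an interval that includes 0. At equal MNase per cell, the log2 ratio was 0.38 (-0.92 to 1.73) for RS 1 U over M 0.5 U and -2.13 (-5.27 to -0.09) for RS 2 U over M 1 U.

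Along the MNase series the log2 ratio of relative density, 2 U over 0.5 U, was -1.80 (-4.88 to 0.13) in RS and 0.60 (-0.52 to 1.83) in M. The RS value minus the M value was -2.39 (-4.70 to -0.09), and -2.17 (-4.47 to 0.13) without the 10 kb bins of many calls. Among calls above the smallest read count it was -0.93 (-3.63 to 1.77), with -0.17 in RS and 0.76 in M. RS 2 U was also the shortest list and RS 0.5 U the longest, and the part of list length in this difference was not tested.

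Other families of clustered receptor genes gave values for comparison. Vmn2r genes (n = 120) had relative densities of 1.41, 1.43 and 0.989 in RS and 2.09, 1.67 and 1.10 in M, with a mean log2 RS over M of -0.31 (-0.56 to -0.06). Olfactory receptor genes (n = 1103) had 1.45, 1.07 and 0.582 in RS and 1.16, 1.35 and 1.38 in M, with a mean log2 RS over M of -0.42 (-0.69 to -0.15) and a value at 2 U of -1.24 (-1.90 to -0.64). All protein-coding genes had 0.861, 0.905 and 0.923 in RS and 0.710, 0.791 and 0.862 in M, and a mean log2 RS over M of 0.19 (0.17 to 0.21). The Vmn1r mean of -0.74 had the sign of both receptor families, and its interval overlapped theirs; the differences between families were not tested.

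Most Vmn1r genes had no call in any list. At least 1 call lay at 53 of 228 genes (23.2%), whereas 66.8% of all autosomal protein-coding genes had one. Vmn1r genes are short: among 3186 protein-coding genes with windows of like length (2897 to 5660 bp) the share was 30.8%. In the RS lists 35 genes had a call (15.4%), where 58.0% of all genes and 20.8% of genes of like length had one. In the M lists 27 genes had a call (11.8%), where the background was 42.2% and 14.7%. By list, 31, 8 and 2 genes had a call in RS at 0.5, 1 and 2 U, beside a background of 50.3%, 23.5% and 17.8% of all genes. In M these were 7, 10 and 16 genes, beside 15.4%, 23.9% and 29.0%. The shares of Vmn1r genes stayed somewhat below those of genes of like length in all 6 lists, from 13.6% against 16.5% in RS 0.5 U to 3.07% against 3.23% in M 0.5 U. These shares include a run of 70 neighbouring genes without a call, described below. Outside that run, 53 of 158 genes had a call in any list. The run was chosen after the values were seen, so leaving it out could only raise the share. The genes of like length were not trimmed in this way, so the share outside the run is not set against their 30.8%.

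Both stages had a call at 9 genes (3.95%, where all genes had 33.4% and genes of like length 4.74%). Calls in RS lists alone were at 26 genes and in M lists alone at 18, a split for which no background share was counted. Calls per 100000 autosomal calls, averaged over the 3 amounts, were higher in RS at 28 genes (12.3%, background 40.3%) and higher in M at 25 genes (11.0%, background 26.5%). At 0.5 U they were higher in RS at 30 genes (13.2%, background 41.8%) and higher in M at 7 genes (3.07%, background 10.7%), and at 1 U at 7 genes in RS (3.07%, background 18.3%) and 9 genes in M (3.95%, background 17.0%). At 2 U they were higher in RS at 2 genes (0.877%, background 14.3%) and higher in M at 14 genes (6.14%, background 21.7%). Among genes of like length, the shares higher in RS were 17.6% for the mean and 15.6%, 3.80% and 2.26% at 0.5, 1 and 2 U. The shares higher in M were 13.2% for the mean and 3.14%, 5.30% and 7.22%. Each Vmn1r share was nearer to these than to the background of all genes. A call appeared in a single list at 39 genes, in 2 lists at 11 genes, in 4 lists at 2 genes and in 5 lists at Vmn1r235. No gene had calls in all 6 lists, and no background share was counted for these numbers of lists.

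**Figure D2:**
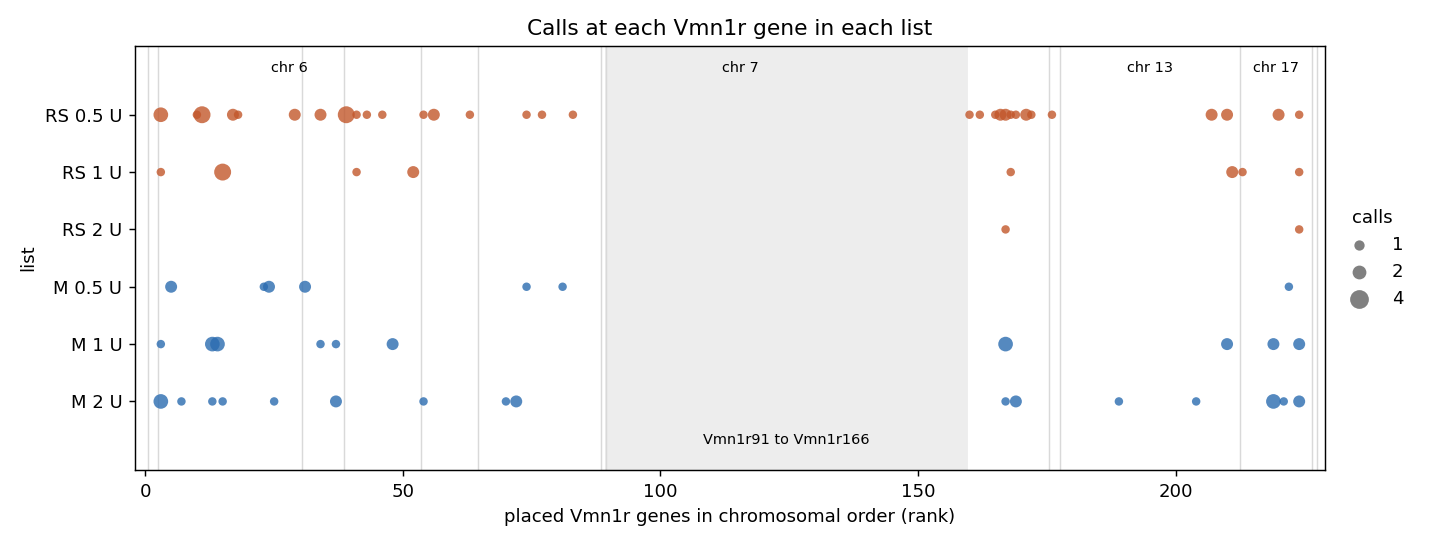
Calls at each of the 228 Vmn1r genes in chromosomal order (x axis, rank) in each list (y axis; RS orange, M blue), with the area of a point in proportion to the number of calls and thin lines between clusters. The shaded stretch is the run from Vmn1r91 to Vmn1r166, 70 genes with 0 calls in all 6 lists.

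The calls were not spread evenly over the family: 70 neighbouring genes had none. On chromosome 7, from Vmn1r91 to Vmn1r166 (20101158 to 23251682, mm10), 0 calls lay in the windows in all 6 lists, where 20.7 were expected in RS and 13.7 in M. The sequence between these windows was poor in calls as well. The rest of this stretch held 15 calls in RS where 294 were expected and 8 in M where 194.5 were expected, a relative density of 0.0471 over both stages. All 53 genes with a call were among the other 158 genes. Over those, the relative density was 1.13, 1.34 and 0.325 in RS and 1.03, 1.42 and 1.56 in M.

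The 16 genes that follow in the same cluster, Vmn1r167 to Vmn1r183 (23504642 to 24055691), gave the opposite picture. Of these, 9 had a call, and their windows held 14 calls in RS and 6 in M, relative densities of 2.85 in RS and 1.85 in M. The sequence between their windows had a relative density of 2.64 in RS and 3.24 in M. Over all clusters, the log2 ratio of density in the windows over the rest of the cluster spans was 0.02 (-0.27 to 0.29), and 0.08 (-0.21 to 0.35) without the run, intervals that include 0. With 5000 bp on each side of the genes in place of 1000 bp it was 0.21 (0.05 to 0.36), an interval that excludes 0. The run and its edges were chosen after the values were seen.

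Near-identical copies were concentrated in the same run. Of its 70 genes, 68 had a promoter sequence, and 53 of these promoters were identical to that of another gene, 14 were at least 95% identical and 1 was below 80%. Over the family, 55 genes had a promoter identical to that of another gene, in 22 groups of which the largest had 6 genes. A call lay at 1 of these 55 genes, Vmn1r47, whose promoter equals that of its neighbour Vmn1r48. The 55 genes had 1 call where 26.7 were expected, a relative density of 0.0375 (0.000949 to 0.209).

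Genes whose promoter was not identical to another had more calls, but the relative density did not rise steadily as identity fell. It was 1.14 at 95% or more, 1.15 between 80% and 95% and 0.929 below 80%. Outside the run these were 1.79, 1.15 and 0.942. With a closest promoter of 95% identity or more, 7 of 33 genes (21.2%) had a call, and these were divided by the run: the 14 genes inside it had 0 calls where 6.79 were expected, and the 19 genes outside it had 21 calls where 11.7 were expected, a relative density of 1.79 (1.11 to 2.74). Between 80% and 95%, 11 of 35 genes (31.4%) had a call, and 28 calls stood against 24.4 expected. Below 80%, 26 of 82 genes (31.7%) had a call, and 49 calls stood against 52.8 expected. Among the 23 genes without a promoter sequence, 8 had a call. Identical promoters and position in the run go together, with 53 of the 55 identical promoters in the run, so that for these the part of each in the missing calls cannot be told apart. How the authors treated reads that align to several copies is not given in the sources used here. The classes of identity were also chosen after the values were seen.

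**Figure D3:**
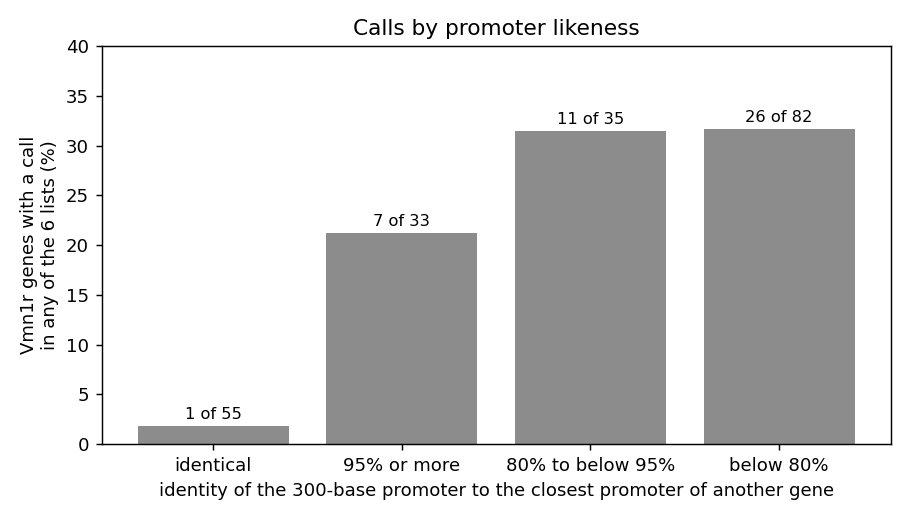
Share of Vmn1r genes with a call in any of the 6 lists (y axis, percent) by the identity of their 300-base promoter to the closest promoter of another gene (x axis), for the 205 genes with a promoter sequence. The bar of genes with an identical promoter stands at 1 of 55 genes, the other bars between 7 of 33 and 26 of 82.

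Genes fell into 13 clusters when neighbours within 1 Mb were joined, and the clusters are described in chromosomal order with calls summed over the 3 amounts. Vmn1r1 on chromosome 1, Vmn1r2 and Vmn1r3 on chromosome 4, Vmn1r90 on chromosome 7 and Vmn1r238 on chromosome 18 had 0 calls in all 6 lists, where fewer than 1 was expected for each of these clusters. On chromosome 6, the cluster from Vmn1r4 to Vmn1r31 (56923914 to 58472878) held the most calls. It had a call at 14 of 28 genes, with 18 calls and a relative density of 1.20 in RS and 19 calls and 1.91 in M, and a log2 RS over M of -0.67 (-1.69 to 0.34). The 8 genes from Vmn1r32 to Vmn1r39 had 2 calls in RS and 6 in M, at relative densities of 0.670 in RS and 3.04 in M. The 15 genes from Vmn1r40 to Vmn1r54 leaned the other way, with 10 calls in RS and 2 in M, a log2 RS over M of 1.73 (-0.50 to 4.96).

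On chromosome 7, the 11 genes from Vmn1r55 to Vmn1r65 had 4 calls in RS and 1 in M, and the 24 genes from Vmn1r66 to Vmn1r89 had 3 calls in RS and 5 in M. The large cluster from Vmn1r91 to Vmn1r183, which contains the run, had 86 genes, with 14 calls in RS and 6 in M, at relative densities of 0.546 in RS and 0.354 in M. Vmn1r184 and Vmn1r185 had 1 call in RS and 0 in M. The chromosome 13 cluster from Vmn1r188 to Vmn1r223 was sparse, with a call at 5 of 35 genes and 6 calls in RS and 4 in M, relative densities of 0.581 in RS and 0.586 in M.

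On chromosome 17, the 14 genes from Vmn1r224 to Vmn1r237 (20419163 to 21314886) had the highest M value of any cluster. They had 6 calls in RS where 4.33 were expected and 11 calls in M where 2.87 were expected, relative densities of 1.38 in RS and 3.84 in M. The sequence between these windows had relative densities of 1.40 in RS and 1.63 in M. The log2 RS over M of the cluster was -1.47 (-3.19 to 0.09), an interval that includes 0. Of the 8 clusters with calls in both stages, 5 had a lower relative density in RS, and no interval of a cluster excluded 0.

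**Figure D4:**
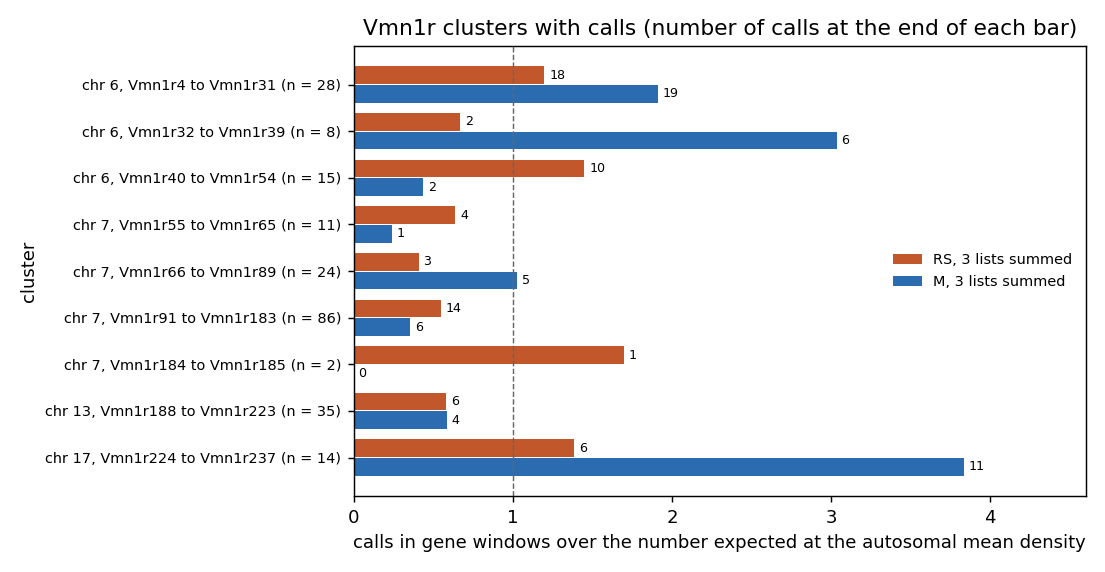
Relative density of calls, summed over the 3 MNase amounts of a stage (x axis), in each Vmn1r cluster with a call (y axis; RS orange above M blue); numbers at the bars are calls, n is the number of genes and the dashed line marks the autosomal mean. The bars of the stages lie farthest apart on chromosome 17 (1.38 in RS against 3.84 in M) and from Vmn1r32 to Vmn1r39 (0.670 in RS against 3.04 in M).

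Calls summed over the 3 amounts lay at different places on the genes in the 2 stages. For the 205 genes whose strand is known, 16 of 52 RS calls (30.8%, 18.7% to 45.1%) and 30 of 47 M calls (63.8%, 48.5% to 77.3%) had their midpoint between the ends of the gene. The relative density within the genes was 0.489 (0.280 to 0.795) in RS and 1.39 (0.936 to 1.98) in M. In the 1000 bp upstream it was 1.27 (0.830 to 1.86) in RS, from 26 calls, and 0.591 (0.255 to 1.16) in M, from 8 calls. In the 1000 bp downstream it was 0.489 (0.234 to 0.899) in RS, from 10 calls, and 0.665 (0.304 to 1.26) in M, from 9 calls. These sums weigh the amounts unequally, since most RS calls came from 0.5 U and most M calls from 1 and 2 U. By amount, the calls within the gene were 12 of 43, 3 of 7 and 1 of 2 in RS at 0.5, 1 and 2 U, and 4 of 10, 12 of 18 and 14 of 19 in M. This share was higher in M at each amount, and the exact binomial intervals of the stages overlapped at each. The part of the MNase amount in the summed difference was not tested further.

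Counted in gene bodies alone, all 228 genes had 13, 3 and 1 calls in RS and 4, 12 and 19 calls in M. The RS calls lay at 10 genes and the M calls at 16 genes, with at most 4 calls at 1 gene in each stage. At equal amounts the log2 RS over M was -0.46 (-2.15 to 1.62) at 0.5 U, -1.46 (-3.93 to 0.43) at 1 U and -2.92 (-8.30 to -0.27) at 2 U, so that the interval excluded 0 at 2 U alone, with 1 RS call. The mean log2 RS over M was then -1.61 (-2.88 to -0.35), an interval that excludes 0, whereas the value for the windows was -0.74 and included it. In the 208 genes of at most 2000 bp, 11 calls in RS and 22 in M gave a log2 ratio of the summed calls of -1.60 (-2.79 to -0.49). Gene bodies of the other families gave a mean log2 RS over M of -0.33 (-0.59 to -0.08) for Vmn2r genes, -0.67 (-0.998 to -0.33) for olfactory receptor genes and 0.19 (0.17 to 0.21) for all protein-coding genes. With calls within 73 bp at a gene merged, 13 of 45 RS positions (28.9%, 16.4% to 44.3%) and 23 of 37 M positions (62.2%, 44.8% to 77.5%) lay in gene bodies. The split by position was looked at after the call counts were known.

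**Figure D5:**
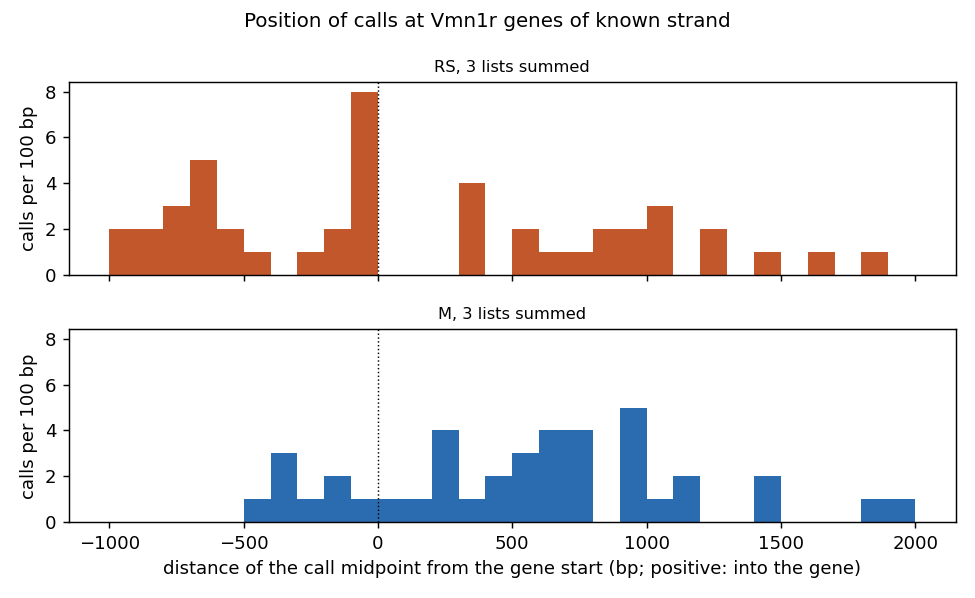
Number of calls per 100 bp (y axis) by the distance of the call midpoint from the gene start in bp (x axis, positive into the gene) at Vmn1r genes of known strand, with the 3 lists of a stage summed (RS above, M below); calls more than 2000 bp from the start are not drawn. Of the RS calls 26 lie before the start and 16 within the gene; of the M calls 8 lie before the start and 30 within the gene.

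Single genes had few calls, and each depends on a small number of reads. The p-value that the authors deposited for a call matches the upper tail of a Poisson distribution, from which the number of reads behind it follows. Of the 118 calls at Vmn1r genes, 86 had the minimum of 6 reads, 28 had 7 and 4 had 8. All 13 calls of RS 1 U and all 20 calls of M 1 U stood at the minimum, where 71.2% of autosomal calls did in RS 1 U and 70.6% in M 1 U. A call at a single gene can therefore appear or vanish with 1 read. Positions recurred seldom: of 79 merged positions, 3 were in at least 2 lists (3.80%), beside 2.25% for windows of all protein-coding genes outside the bins of many calls.

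The genes with the most calls were Vmn1r4, Vmn1r174 and Vmn1r235. Vmn1r4 (chromosome 6, 56923914 to 56957608), the longest of the family at 33695 bp, had 3, 1 and 0 calls in RS at 0.5, 1 and 2 U, against 0, 1 and 3 calls in M. Both stages thus had 4 calls at this gene, at different positions. Vmn1r174 (chromosome 7, 23753911 to 23754852), whose promoter is shown above beside that of Vmn1r173, had 2, 0 and 1 calls in RS, against 0, 3 and 1 calls in M. All 4 of its M calls lay in the gene, at 86 to 631 bp from its start, and its 3 RS calls lay outside it. Its copy Vmn1r173 had 2 calls in RS 0.5 U and 0 in the other 5 lists.

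Vmn1r235 (chromosome 17, 21260427 to 21262863) was called in 5 lists, with 1, 1 and 1 calls in RS, against 0, 2 and 2 calls in M. One position in this gene was shared by the stages, with midpoints from 21261492 to 21261542 in RS 2 U and M 1 U. The other position seen in both stages was the promoter of Vmn1r55 printed above, with midpoints at 5147482 in RS 0.5 U and 5147464 in M 2 U. The remaining shared position, in Vmn1r42 on chromosome 6, was in RS 0.5 U and RS 1 U.

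Some genes were called in 1 stage alone. Vmn1r12 had 4, 0 and 0 calls in RS and 0 in all 3 M lists, and 2 of these calls, at 83 and 63 bp before its start (-83 and -63 bp), had 8 reads, the highest number at any Vmn1r gene. Vmn1r40 had 4 calls in RS 0.5 U, at -119 to -49 bp, and none in the other 5 lists. Vmn1r230 had 0 calls in RS, against 0, 2 and 3 calls in M, and Vmn1r14 had 0 calls in RS, against 0, 3 and 1 calls in M. Vmn1r15 had 0 calls in RS, against 0, 3 and 0 calls in M, and Vmn1r38 had 0 calls in RS, against 0, 1 and 2 calls in M. Several of these calls overlapped each other within 1 list. In Vmn1r15 the 3 midpoints lay at 568, 588 and 608 bp from the start.

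Other genes with at least 3 calls had them in both stages. Vmn1r16 had 0, 4 and 0 calls in RS, against 0, 0 and 1 calls in M, Vmn1r221 had 2, 0 and 0 calls in RS, against 0, 2 and 0 calls in M, and Vmn1r176 had 1, 0 and 0 calls in RS, against 0, 0 and 2 calls in M. Among the 13 genes with at least 3 calls, 4 had more calls per 100000 in RS and 9 had more in M. No background share was counted for this split, so no lean to a stage is read from it. The split also depends on list length, since a call weighs less per 100000 in a longer list. Vmn1r4 and Vmn1r221, with equal numbers of calls in the stages, counted as higher in M. Vmn1r235, with 3 calls in RS and 4 in M, counted as higher in RS.

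Genes that act with or beside V1R receptors were counted in the same way. Gnai2 encodes the G protein alpha subunit of V1R neurons, Gnao1 that of V2R neurons, Trpc2 the channel that carries the vomeronasal response, and Omp the olfactory marker protein of mature sensory neurons. Of 13 such genes, 9 had a call (69.2%), near the background of 66.8% of all genes, and Trpc2, Omp, Gng8 and Plcb2 had 0 in all 6 lists. For Trpc2, 1.57 calls were expected in RS and 1.04 in M, so that few calls were to be seen there at all. Gnai2 had 0, 1 and 0 calls in RS, against 0, 2 and 0 calls in M, where 2.32 were expected in RS and 1.54 in M. Gnao1, which is far longer, had 5, 1 and 0 calls in RS where 16.1 were expected, and 0 in M where 10.6 were expected. The chloride channel gene Ano1 had 18 calls in RS where 16.5 were expected and 15 in M where 10.9 were expected. Its relative Ano2 had 34 calls in RS where 35.1 were expected and 23 in M where 23.2 were expected. Of 4 Fpr-rs genes, formyl peptide receptors of the vomeronasal organ, 3 had a call (75.0%, where 30.8% of the genes of like length to Vmn1r genes did), all 4 calls being in RS 0.5 U.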

How the data were processed

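Per the labels' protocols, cells were separated by STAPUT sedimentation and digested for 7.5 min at 37 °C. STAR 2.5.2a and the build GRCm38/mm10 are named in the submitters' processing notes. For the nucleosome caller, its threshold and its treatment of reads with several alignments, the method is not given in the sources used here. The authors deposited 1 list per group, made from both samples per the design text of the series, with a p-value for each call. Each distinct p-value was matched to a Poisson upper tail to obtain the reads behind a call.

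Genes, promoters and their coordinates came from RefSeq tables of GRCm38.p6. Genes were picked by symbol and matched to their promoters by gene identifier, and exons were not used here. Expected calls are the mean density of calls over 19 autosomes (2402.84 Mb from the lowest to the highest call of each) times the merged window length. Intervals are exact Poisson for densities, exact binomial (Clopper-Pearson) for shares and for ratios of single lists, and normal for means over amounts. Promoters were compared with BLAST 2.17.0 (word size 11), identity being identical bases over 300. Counting used Python 3.11.15, pandas 2.3.3 and scipy 1.17.1, and was tested on simulated data.

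The genes and lists were chosen with earlier results of these data known. Named genes were the 10 with the most calls, those called in at least 5 lists, the 5 per stage with the largest stage difference in calls per 100000 among genes with at least 3 calls, cluster ends, and the signalling genes; Vmn1r6, Vmn1r42, Vmn1r47, Vmn1r55, Vmn1r111 and Vmn1r173 were named after their values were seen. Cluster ratios use calls summed over the 3 amounts, since single lists had clusters without calls.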

Additional observations from a re-analysis of the deposited data

Results flagged for a closer look

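The change of the Vmn1r relative density along the MNase series differed between the stages: the log2 ratio of 2 U over 0.5 U was -1.80 in RS and 0.60 in M, a difference of -2.39 (-4.70 to -0.09). This difference was not tested, since each value rests on 1 list, and the interval includes 0 with overlapping calls merged (-1.74, -4.12 to 0.65), with the dense bins left out (-2.17, -4.47 to 0.13) and among calls above the smallest read count (-0.93, -3.63 to 1.77).

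Calls were also found at Vmn1r pseudogenes, which the counts above do not use. The windows of 136 such pseudogenes held 72 calls in the 6 lists, where 62.7 were expected, and 44 of them had a call. These were 31, 9 and 1 calls in RS and 9, 9 and 13 calls in M at 0.5, 1 and 2 U, relative densities of 1.09 in RS and 1.24 in M. None of these calls was shared with a window of a protein-coding Vmn1r gene.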

How the results depend on the processing

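Of 190 alternatives for the main values, 174 stayed within the counting interval (counts of genes: within 1.5 times) and 16 moved out of it. A reversed direction could not be counted, since every main log2 ratio had an interval that included 0. Densities, shares and counts cannot change sign. The mean log2 RS over M ran from -1.61 to 0.03 over 25 alternatives and was below 0 in 24. The exception left out 2 U. Alternatives that left out the run, or a cluster without calls, could not change this mean, and each gave the main value of -0.74 again. Gene bodies alone gave -1.61 for this mean, relative densities of 0.502 in RS 0.5 U, 0.518 in RS 1 U and 2.07 in M 2 U, and a call at 24 genes in any list, 10 in RS lists and 16 in M lists. With calls above the smallest read count, 20 genes had a call in any list, 11 in RS lists and 11 in M lists; RS 1 U and M 1 U had a relative density of 0.0, so that no mean could be given; the share in gene bodies was 11.1% in RS and 100% in M; and 5 signalling genes had a call. Without the run from Vmn1r91 to Vmn1r166, RS 0.5 U had 1.11. Gene bodies and calls above the minimum hold fewer calls by construction, which bears on the counts of genes; for the densities, the ratio and the shares the cause was not tested. Of 99 alternatives for single genes and other values, 72 stayed in place and 27 moved.

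No paired analysis was possible because each list pools both samples of its group. For the same reason no sample was left out in turn. Of 228 genes, 175 had 0 calls, 70 of them in the run, and 3 calls correspond to a relative density of 0.357 in RS 2 U.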
